A study of Homo sapiens with 6 samples.

Results

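The miR-30 family is a group of microRNAs, small RNAs cut from a hairpin precursor that guide the repression of messenger RNAs. It was followed here in K562 cells with and without additional RUNX1. The members were chosen by name, as 10 mature arms listed in the count files, and make up 10 of 28846 listed small RNAs and 10 of 2596 microRNA entries. They are 5 arms from the 5p side and 5 arms from the 3p side of the hairpins, namely hsa-miR-30a-5p, hsa-miR-30a-3p, hsa-miR-30b-5p, hsa-miR-30b-3p, hsa-miR-30c-5p, hsa-miR-30c-2-3p, hsa-miR-30d-5p, hsa-miR-30d-3p, hsa-miR-30e-5p and hsa-miR-30e-3p. The files list an 11th arm of the family, hsa-miR-30c-1-3p, which is not among the 10 members and is given for comparison.

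K562 is a human erythroleukemia cell line that can be driven toward erythroid or megakaryocytic cells. RUNX1 is a transcription factor of blood cell formation, with a role in megakaryocytic differentiation among others. In the control group (3 samples) the cells carried the empty lentiviral vector, from which only GFP is expressed. In the RUNX1 group (3 samples) the vector expressed human RUNX1 together with GFP, and all 6 samples were taken after 10 days of culture. The transductions were independent triplicates of one cell line, so the spread describes K562 cells only. Small RNA sequencing does not measure the RUNX1 messenger RNA, and the over-expression itself could not be checked in these data.

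Each of the 6 hairpins of the family can yield a 5p and a 3p arm, which are the strands of one short duplex. One strand is usually kept in the silencing complex, and bases 2 to 8 of that strand, the seed, pair with the target messenger RNA. The 5p arms of the miR-30 family share their seed and are the arms usually retained. They are known as repressors of BECN1 in autophagy, of SNAI1 in epithelial cells and of the Notch ligand DLL4 in vessels, and are widely expressed, in blood cells among others.

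The mature sequences below, from RefSeq on GRCh38.p14, are shown because arms that differ by a single base had very different levels. Sequences were found there for 6 of the 10 members and for miR-30c-1-3p. Capitals mark the seed, bases 2 to 8.
hsa-miR-30e-5p: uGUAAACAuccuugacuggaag
hsa-miR-30a-5p: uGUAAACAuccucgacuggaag
hsa-miR-30c-5p: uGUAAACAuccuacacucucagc
hsa-miR-30e-3p: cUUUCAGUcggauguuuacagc
hsa-miR-30a-3p: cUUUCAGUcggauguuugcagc
hsa-miR-30c-1-3p: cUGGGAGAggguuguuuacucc
hsa-miR-30c-2-3p: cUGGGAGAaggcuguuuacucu
Counted from the 5′ end, miR-30a-5p and miR-30e-5p differ only by C13U, so 21 of 22 bases are identical and the difference lies outside the seed. Their 3p arms differ only by G18A. miR-30c-5p has the same seed but 5 differences over the 22 positions compared with either of them. The 3p arms fall into a pair with the seed UUUCAGU and a pair with the seed UGGGAGA. Among 2370 arm names in the RefSeq table, GUAAACA was the seed of these 3 listed 5p arms and of 0 arms outside the family. UGGGAGA was also that of miR-6788-5p.

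The hairpins MIR30E and MIR30C1 are shown whole, with the mature arms in capitals, because they share a host gene and their 3p arms moved in opposite directions. MIR30E lies on the plus strand at chr1:40754355-40754446 and MIR30C1 on the plus strand at chr1:40757284-40757372 (RefSeq, GRCh38.p14).
MIR30E: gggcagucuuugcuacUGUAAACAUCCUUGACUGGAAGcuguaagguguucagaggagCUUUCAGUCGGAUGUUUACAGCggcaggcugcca
MIR30C1: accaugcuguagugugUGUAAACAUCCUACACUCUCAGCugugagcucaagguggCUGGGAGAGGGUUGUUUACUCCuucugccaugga
In the GENCODE 29 annotation of GRCh38 both are intronic in NFYC, on its strand, with 2837 bases between them. NFYC encodes a subunit of the CCAAT-binding factor NF-Y. MIR30A, on chromosome 6 from 71403551 to 71403621, and MIR30C2, from 71376960 to 71377031, lie on the minus strand in introns of the lincRNAs LINC00472 and AL136164.2. The sequence of miR-30c-5p is identical in MIR30C1 and MIR30C2, so its counts cannot be assigned to either hairpin, whereas each hairpin has its own 3p arm.

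The libraries held from 1618248 to 6193319 counts in control and from 7918551 to 15245007 with RUNX1. MicroRNAs took 81.4% to 82.1% of the counts in control and 89.5% to 91.9% with RUNX1. Counts were scaled by edgeR's TMM factors, which were 1.23 to 1.31 in control and 0.735 to 0.866 with RUNX1. The scaled levels are written as CPM, a count divided by its TMM-scaled library size. These factors differ between the groups without overlap, and each change is larger or smaller with the scaling chosen. The 4 erythroid markers were present, and moved with the condition. miR-451a had 2705 to 3158 CPM in control and 1312 to 1863 CPM with RUNX1, and miR-144-5p and miR-486-5p also lay lower with RUNX1, while miR-144-3p lay higher, with 225 to 252 CPM against 111 to 136 CPM in control. The 3 blood-wide markers miR-142-5p, miR-142-3p and miR-223-3p lay higher in all RUNX1 samples, miR-142-3p with 4587 to 8163 CPM against 1485 to 1560 CPM in control. What part these shifts have in the changes of the miR-30 arms was not tested. Of 6 markers of other tissues, miR-206 and miR-124-3p had 0 counts and 3 had 1 to 29 counts, while miR-375, known from endocrine cells, had 5929 counts, with 67.0 to 75.8 CPM in control and 170 to 207 CPM with RUNX1. The name of the first RUNX1 library carries the number of the second, and the titles were followed. Control and RUNX1 library names also carry different letters, and should the letters stand for preparation rounds, such a round cannot be told apart from the condition.

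Of the 10 members, 9 had enough counts for the edgeR test, 6 were up-regulated upon RUNX1 over-expression and 0 were down-regulated. The thresholds for an altered arm were a P-value below 0.05 together with a log2 fold change of 0.5 or more in either direction. The 6 were both arms of miR-30e, both arms of miR-30d, miR-30b-5p and miR-30c-5p, and all 6 also had an adjusted P-value under 0.05. That is 66.7% of the tested members, against 33.4% up-regulated and 22.6% down-regulated among 598 tested microRNAs, and 28% up and 29.6% down among all 947 tested small RNAs. The members are not independent units, since both strands of the miR-30e duplex and both of the miR-30d duplex are among the 6. In 7 members all RUNX1 samples lay above all control samples, which was the case for 36.3% of the tested microRNAs. The median log2 fold change was 0.83 over the 9 members, 0.11 over the microRNAs and -0.06 over all small RNAs tested. miR-30c-5p, which is among the 6 and among the 7, met the count filter only through its RUNX1 samples, so it had to be higher there. With at least 10 counts required in every sample, 5 arms were up-regulated. With the library size as the only scaling, 2 arms were up-regulated, miR-30b-5p and miR-30c-5p.

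**Figure D1:**
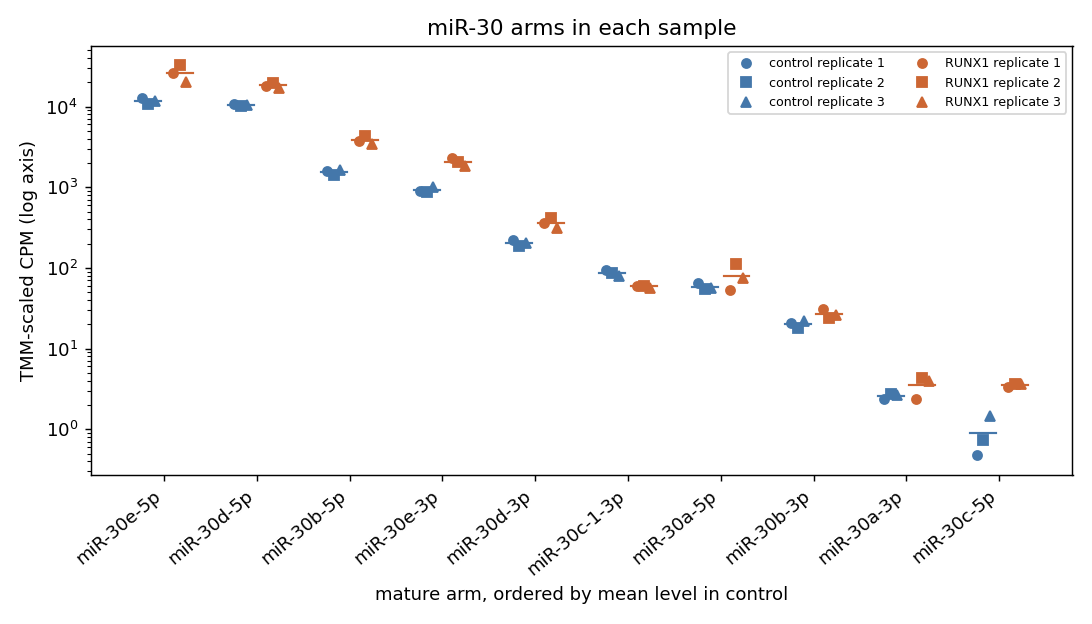
TMM-scaled CPM (log axis) of the 9 tested members and of miR-30c-1-3p in each of the 6 samples, ordered by the mean in control; points are samples, marked by replicate, and short lines are group means. The levels run from 11821 CPM for miR-30e-5p to 0.890 CPM for miR-30c-5p in control, and miR-30c-1-3p is the arm with RUNX1 samples below all control samples.

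The order of the levels was miR-30e-5p, miR-30d-5p, miR-30b-5p, miR-30e-3p and miR-30d-3p in both groups, with no overlap between neighbours. The arms with a sequence above are 22 or 23 bases long, so CPM needed no correction for length, although arms may differ in how well they are captured in a library, and this was not tested. In control, miR-30c-1-3p, miR-30a-5p, miR-30b-3p, miR-30a-3p and miR-30c-5p followed, again without overlap. In RUNX1 samples miR-30a-5p, with 53.5 to 112 CPM, overlapped miR-30c-1-3p, with 56.8 to 60.1 CPM. The lowest pair, miR-30c-5p and miR-30a-3p, then overlapped as well, at 3.57 and 3.53 CPM on average. For the 5 members above 100 CPM, the coefficient of variation between samples was 2.11% to 9.42% in control and 6.49% to 22.8% with RUNX1.

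miR-30e-5p is the most abundant arm of the family and ranked 12 to 16 among the microRNAs in control and 9 to 11 with RUNX1. Its counts were 26950, 86867 and 89555 in control and 300051, 202195 and 139575 with RUNX1. Scaled, these were 12888, 10780 and 11793 CPM in control and 26029, 32349 and 20372 CPM with RUNX1. All RUNX1 samples lay above all control samples, with replicate 2 the highest and replicate 3 the lowest of the RUNX1 group. The log2 fold change was 1.15 (standard error, SE, 0.173, adjusted p = 0.000422 by edgeR), or 2.22-fold.

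miR-30e-3p, the other strand of the same duplex, was less abundant and rose by a similar factor. It had 892, 870 and 1005 CPM in control and 2306, 2035 and 1840 CPM with RUNX1, where replicate 1 was the highest. No control sample reached the RUNX1 range. The log2 fold change was 1.16 (SE 0.134, adjusted p = 8.68e-05 by edgeR). With library size as the only scaling, the log2 fold changes of the miR-30e arms were 0.43 and 0.45, short of the threshold.

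miR-30d-5p was nearly as abundant as miR-30e-5p in control, with tightly grouped samples at 10700, 10259 and 10469 CPM. RUNX1 samples had 18213, 19506 and 17135 CPM, all above control. The log2 fold change was 0.80 (SE 0.110, adjusted p = 0.000246 by edgeR), or 1.75-fold. Its partner strand, miR-30d-3p, had 223, 185 and 202 CPM in control and 360, 412 and 315 CPM with RUNX1. Again the groups did not overlap, and the log2 fold change of miR-30d-3p was 0.83 (SE 0.147, adjusted p = 0.0011). Under library size alone the miR-30d arms had log2 fold changes of 0.10 and 0.12.

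miR-30b-5p had the largest rise among the 5 members above 100 CPM. Its levels were 1594, 1438 and 1620 CPM in control and 3688, 4319 and 3468 CPM with RUNX1. Every RUNX1 sample lay above the highest control sample, and the log2 fold change was 1.30 (SE 0.131, adjusted p = 3.68e-05 by edgeR), or 2.47-fold. Library size alone left 0.60, still past the threshold.

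The other strand of this hairpin, miR-30b-3p, was not altered. Counts of 43, 146 and 167 in control and 361, 148 and 180 with RUNX1 correspond to 20.6, 18.1 and 22.0 CPM and to 31.3, 23.7 and 26.3 CPM. Although the groups did not overlap, the log2 fold change of miR-30b-3p, 0.43 (95% interval 0.04 to 0.82, adjusted p = 0.0555 by edgeR), stayed under 0.5. It passed both thresholds under RLE, with DESeq2 or without a count filter (0.51 to 0.52), and without control replicate 3, RUNX1 replicate 2 or RUNX1 replicate 3 (0.52 to 0.57). With library size alone it was -0.27.

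miR-30a-5p differs from miR-30e-5p by 1 base and had far fewer counts. How reads were divided between arms this similar is not given in the sources used here, so the counts of both miR-30a arms are uncertain. Control samples had 64.6, 55.5 and 56.4 CPM, and RUNX1 samples 53.5, 112 and 74.6 CPM. The groups overlapped, since RUNX1 replicate 1 was the lowest of all 6 samples and RUNX1 replicate 2 the highest. The log2 fold change of 0.45 (95% interval -0.11 to 1.01, adjusted p = 0.145 by edgeR) did not pass, and its interval includes changes as large as that of miR-30d-5p. Without RUNX1 replicate 1, miR-30a-5p had 0.71 and passed the thresholds, as it did without RUNX1 replicate 3 (0.57) and without a count filter (0.53). Without RUNX1 replicate 2 it had 0.17, and with library size alone -0.26.

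miR-30a-3p, the partner strand, rested on 5, 22 and 20 counts in control and 27 in each RUNX1 sample. Scaled to the libraries, this was 2.39, 2.73 and 2.63 CPM in control and 2.34, 4.32 and 3.94 CPM with RUNX1. As with the 5p arm, RUNX1 replicate 1 fell below every control sample. The log2 fold change was 0.38 (95% interval -0.32 to 1.08, adjusted p = 0.323), and became 0.67 and past the thresholds without RUNX1 replicate 1.

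**Figure D2:**
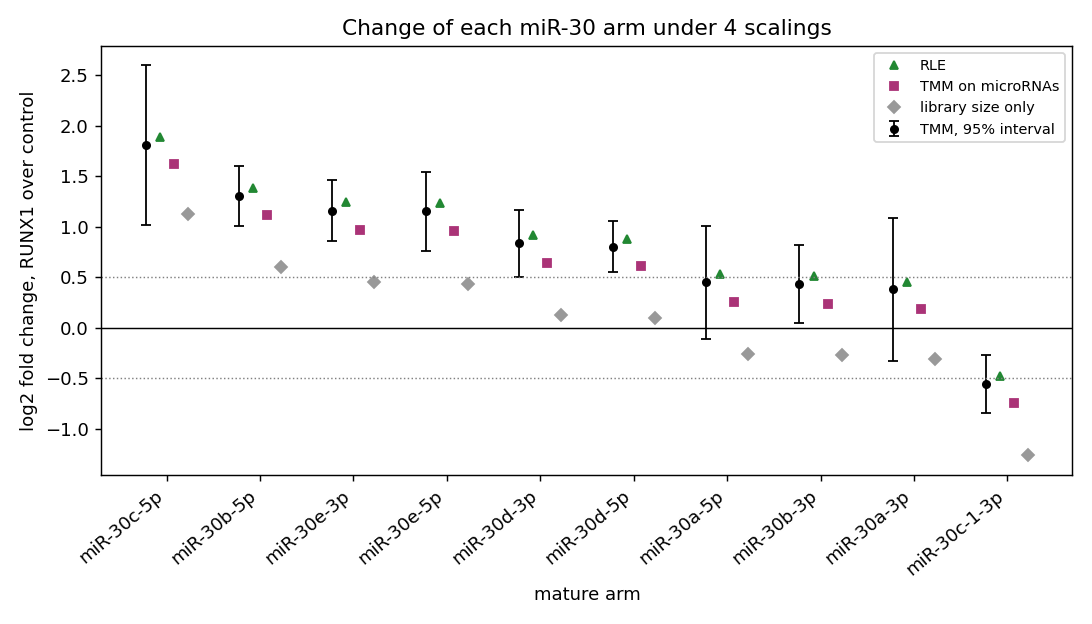
Log2 fold change (RUNX1 over control) of the 9 tested members and miR-30c-1-3p under 4 scalings; black points with bars are the TMM fit with its 95% interval, the other symbols RLE, TMM on microRNAs only and library size only, and dotted lines mark 0.5 and -0.5. The order of the arms is kept while library size alone lowers all of them, for miR-30e-5p from 1.15 to 0.43 and for miR-30c-1-3p from -0.55 to -1.26.

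miR-30c-5p, the 5p arm shared by MIR30C1 and MIR30C2, had few counts. It had 1, 6 and 11 counts in control and 39, 23 and 25 with RUNX1, or 0.478, 0.745 and 1.45 CPM against 3.38, 3.68 and 3.65 CPM. The RUNX1 samples lay above the control samples and close to each other. With 105 counts in all, the log2 fold change of 1.81 (95% interval 1.02 to 2.59, adjusted p = 0.00175 by edgeR) is the largest of the family and the least precise. Since miR-30c-5p met the count filter only through its RUNX1 samples, it had to be higher there, and its P-value is no evidence of a rise. miR-30c-2-3p, the 3p arm of MIR30C2, had 0, 1 and 5 counts in control and 1, 0 and 4 with RUNX1. It failed the filter and was not tested, and a difference was not detectable at this depth.

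miR-30c-1-3p, the 3p arm of MIR30C1, had 2961 counts in all, against 105 for miR-30c-5p. MIR30C1 and MIR30C2 share the sequence of miR-30c-5p, and how such reads were counted is not given. These totals therefore do not show which strand of MIR30C1 prevails. The levels of miR-30c-1-3p were 93.7, 87.0 and 79.9 CPM in control and 60.1, 60.0 and 56.8 CPM with RUNX1. All RUNX1 samples lay below all control samples, and the log2 fold change was -0.55 (SE 0.128, adjusted p = 0.00472 by edgeR). This value is close to the threshold, and miR-30c-1-3p was within it under RLE (-0.48), with DESeq2 (-0.47), without a count filter (-0.46), without control replicate 1 (-0.48) and without RUNX1 replicate 3 (-0.43), while library size alone gave -1.26. The direction was negative in each of these.

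Because miR-30c-1-3p and miR-30e come from the same host gene, NFYC, their counts were also compared within each sample, where no scaling between libraries enters. The log2 ratio of miR-30e-3p to miR-30c-1-3p counts was 3.25, 3.32 and 3.65 in control and 5.26, 5.08 and 5.02 with RUNX1. On average the ratio was 1.71 higher in RUNX1 samples, and the groups did not overlap. The exact permutation test (two-sided) gave p = 0.1, the smallest that 3 samples against 3 allow. For miR-30e-5p to miR-30c-1-3p the log2 ratio was 1.69 higher, also without overlap, a separation seen in 63.9% of pairs of tested microRNAs. Leaving out single samples gave differences of 1.63 to 1.84 for the first ratio. These pairs were picked after the values had been seen.

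A RUNX binding motif, given as TGTGGT or TGCGGT, was searched on both strands of promoter windows of 300 bases, from 250 before to 50 after each RefSeq start. The first of 3 NFYC windows held 1 match, the other 2 and the window of LINC00472 held 0, and 19.6% of 35116 windows held at least 1. The stretch of 100 bases just before the first NFYC start, chr1:40691604-40691703 on the plus strand of GRCh38.p14, is shown with the match in capitals, which lies on the minus strand and begins 59 bases before the start.
NFYC: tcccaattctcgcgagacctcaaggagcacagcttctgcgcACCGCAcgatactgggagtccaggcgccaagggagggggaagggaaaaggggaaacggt
The match is a description of the letters, and RUNX1 binding was not measured in these samples.

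Ratios of the arms of one hairpin show whether both strands moved together. For miR-30e the log2 ratio of 5p to 3p counts was 3.68 ± 0.156 in control and 3.65 ± 0.294 with RUNX1 (SD, n = 3 each). For miR-30d it was 5.69 ± 0.105 and 5.66 ± 0.101, and for miR-30a 4.51 ± 0.218 and 4.48 ± 0.229. In these 3 hairpins the groups overlapped and the means differed by less than the spread between samples. These small differences changed sign when single samples were left out.

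In miR-30b the 5p to 3p ratio was different. It was 6.28, 6.31 and 6.20 in control and 6.88, 7.51 and 7.04 with RUNX1, with RUNX1 replicate 2 the highest. The difference of 0.88 was larger than the spread, and the groups did not overlap (exact permutation test, p = 0.1, 0.25 after adjustment over 5 ratios). Such a separation was found in 54.9% of 144 tested pairs of 5p and 3p arms of the same name. The ratio of miR-30c-5p to miR-30c-2-3p also lay higher in RUNX1 samples, but rests on at most 5 counts of the 3p arm per sample. Over the whole family, 5p arms held 95.4% ± 0.293 of the counts in control and 95.1% ± 0.581 with RUNX1 (SD, n = 3 each), which overlapped.

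**Figure D3:**
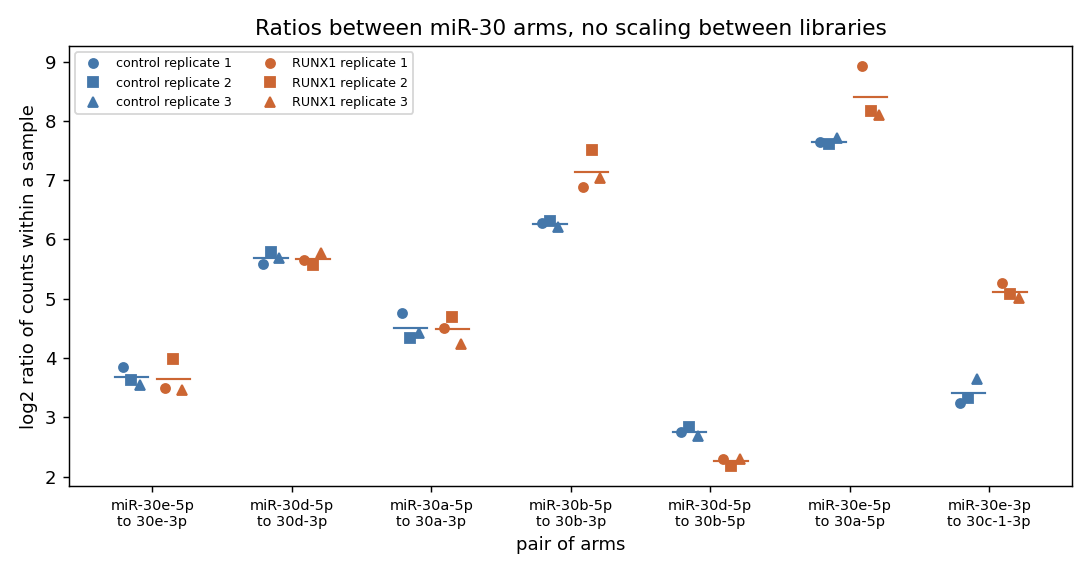
Log2 ratio of the counts of arm pairs within each of the 6 samples; points are samples, marked by replicate, and short lines are group means, and no scaling between libraries enters. The first 3 pairs overlap between control and RUNX1 samples, miR-30b-5p to miR-30b-3p, miR-30e-5p to miR-30a-5p and miR-30e-3p to miR-30c-1-3p lie higher in RUNX1 samples, and miR-30d-5p to miR-30b-5p lies lower.

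MIR30B and MIR30D are neighbours on the minus strand of chromosome 8 (GENCODE 29, GRCh38), from 134800520 to 134800607 and from 134804876 to 134804945, with 4268 bases between them and no annotated gene around either. The ratio of their 5p arms differed between the groups. The log2 ratio of miR-30d-5p to miR-30b-5p counts was 2.75, 2.84 and 2.69 in control and 2.30, 2.18 and 2.30 with RUNX1. Every RUNX1 sample lay below every control sample, and a separation in either direction was seen in 63.9% of pairs of tested microRNAs. The difference of -0.50 was larger than the spread, with an SD of 0.0720 in control and 0.0746 with RUNX1.

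All 10 pairs of 5p arms were compared. The 4 pairs with miR-30c-5p are set aside, since that arm met the count filter only through its RUNX1 samples. Of the other 6 pairs, 3 did not overlap between the groups, each with p = 0.1 by the exact permutation test and 0.2 after adjustment over the 10 pairs. These were the pair of neighbours, miR-30e-5p to miR-30a-5p and miR-30b-5p to miR-30a-5p. Of all 178503 pairs of tested microRNAs, 63.9% did not overlap, so such a separation was no more frequent among the miR-30 5p arms. The ratio of miR-30e-5p to miR-30a-5p, which differ by 1 base, was 7.64, 7.60 and 7.71 in control and 8.93, 8.17 and 8.09 with RUNX1. RUNX1 replicate 1 was the highest here, and the mean difference was 0.75, or 0.48 without it. The ratio of miR-30e-5p to miR-30d-5p, the most abundant arms, overlapped between the groups, with 0.17 ± 0.0985 in control and 0.50 ± 0.241 with RUNX1 (SD, n = 3 each), with p = 0.2 by the exact permutation test. Without RUNX1 replicate 2 the difference fell from 0.33 to 0.21.

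The family as a whole took 4.16%, 3.80% and 3.76% of the microRNA counts in control and 4.17%, 4.73% and 4.18% with RUNX1. The groups did not overlap, but control replicate 1 almost reached RUNX1 replicate 1. The difference was 0.456 percentage points (exact permutation test, p = 0.1), and 0.271 without RUNX1 replicate 2. Without miR-10a-5p, the most abundant microRNA outside the family, the share was 4.23% ± 0.208 in control and 6.26% ± 0.628 with RUNX1 (SD, n = 3 each). The difference was then 2.03 percentage points (exact permutation test, p = 0.1). Leaving miR-10a-5p out raised the mean share from 3.91% to 4.23% in control and from 4.36% to 6.26% with RUNX1. miR-10a-5p thus took a larger part of the microRNA counts in RUNX1 samples. The family counts are the same in both kinds of share, and only the total they are divided by differs.

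Shares of single members within the family were compared in the same way. miR-30d-5p held 40.6%, 43.5% and 41.6% of the family counts in control and 35.9%, 33.2% and 39.6% with RUNX1, which were all lower. miR-30b-5p went from 6.19% ± 0.214 to 7.55% ± 0.410 (SD, n = 3 each), without overlap. The share of miR-30a-5p, 0.235% ± 0.0104 in control and 0.156% ± 0.0449 with RUNX1, was lower in all RUNX1 samples. The shares of miR-30d-3p and miR-30b-3p were also lower in all RUNX1 samples, and that of miR-30c-5p, with few counts, was higher. Each of these shares had p = 0.1 by the exact permutation test. Shares of one total move against each other, and how often such shares separate for other microRNAs was not computed. miR-30e-5p, with 47.1% ± 1.61 and 51.2% ± 3.97, overlapped between the groups, as did miR-30e-3p, miR-30a-3p and miR-30c-2-3p.

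**Figure D4:**
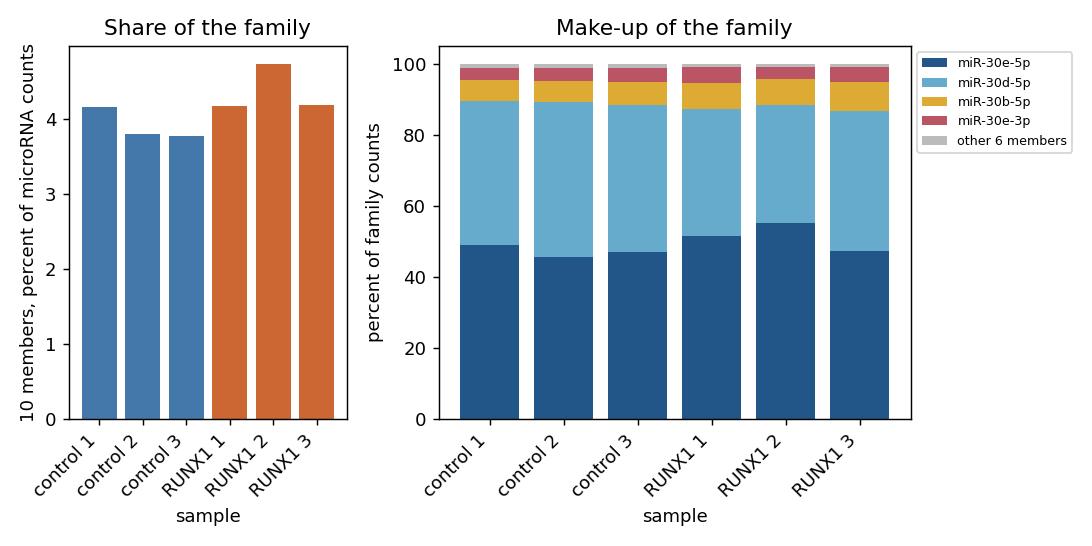
Left, the 10 members as a percent of microRNA counts in each sample (bars from 0); right, the percent of the family counts held by each of the 4 most abundant members and by the other 6 together. The 3 control samples lie at 3.76% to 4.16% and the 3 RUNX1 samples at 4.17% to 4.73%, and miR-30d-5p holds less of the family in each RUNX1 sample than in any control sample.

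The low count of miR-30c-5p was set beside other mature arms that more than 1 human hairpin makes. Of 27 such arms on a list, 25 were in the files, with a median of 142 counts over all 6 samples together, and 24 had fewer than 5000. Of these 25, 13 had more counts than miR-30c-5p. The share under 5000 among other microRNAs was not computed, so the list does not show that such arms are unusually low. miR-124-3p and miR-199a-5p had 0 counts, miR-128-3p 4495, and miR-92a-3p, with 982584 counts, stood apart. By RefSeq, 6 of 134 arms from more than 1 hairpin (4.48%) had at least 1000 counts, and 202 of 2128 arms from a single hairpin (9.49%). Most arms of either kind thus lay under 1000 counts. miR-101-3p, with 3211 counts, is on the list but is entered for a single hairpin in the RefSeq table and was counted there as such. How reads that match several loci were counted is not given in the sources used here, and its part in the low count of miR-30c-5p was not tested.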

How the data were processed

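The authors made small RNA libraries (TruSeq Small RNA kit, 1000 ng of total RNA, single reads of 51 nt) and deposited whole-number counts per annotated small RNA, without normalization. The submitters' processing notes name CASAVA 1.8.2 and the build hg19, and the study used the OASIS platform with its standard settings for differential expression. Which aligner made these counts, and how reads matching several loci were treated, is not given in the sources used here. The 5 footer rows of each file name no small RNA, held 0 counts and were left out.

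The main fit was computed in R 4.3.3 on the 947 entries kept by filterByExpr (minimum count 10, minimum total count 15). It used edgeR 4.0.16 (TMM, quasi-likelihood test, condition as the only term) and Benjamini-Hochberg adjustment over all 947. Shares, ranks and the ratios of miR-30 arms were computed in Python from the deposited counts, without this filter, as were the permutation tests. The biological coefficient of variation was 0.181. Intervals are 95%, and standard errors were obtained by dividing the log2 fold change by the root of F. In ratios within a sample, a count of 0 was set to 1. Replicates of a group differed by more than sampling noise (chi-square per degree of freedom 9.62 to 451). A floor of 3 counts was 0.000185% of the smallest and 1.97e-05% of the largest library and covers counting error only.

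The code was tested on simulated data. Alternatives were DESeq2 1.42.0, other scalings and filters, the replicate block, summed near-identical arms and each sample left out. miR-30c-1-3p and its ratios were added after the data were seen. Named microRNAs are all members, the family's other listed arm, arms sharing a seed, the 3 microRNAs most correlated with the family, markers and the extremes of the list of arms with several hairpins. miR-10a-5p, the most abundant microRNA outside the family, is named where it was left out of a share, and miR-101-3p was named after its values were seen. Members and lists were chosen with earlier results of these data known. Sequences are from RefSeq (GRCh38.p14) and positions from GENCODE 29 (GRCh38), and no position from hg19 was used.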

Additional observations from a re-analysis of the deposited data

How the results depend on the processing

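The number of up-regulated miR-30 arms was 5 to 8 under all alternatives except library size only, where it was 2, and 6 with the replicate number as a block. That scaling shifted the median log2 fold change of all small RNAs by -0.70, TMM on microRNAs only by -0.19. It turned miR-30a-5p to -0.26, miR-30a-3p to -0.31 and miR-30b-3p to -0.27. Of 136 alternative log2 fold changes of single arms, 114 kept direction and side of the thresholds, 9 no longer passed, 10 newly passed and 3 reversed. Same-numbered control and RUNX1 samples did not deviate together (correlations -0.0327, -0.0904 and 0.0178), so the block pairs a number only.

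Of 127 alternative ratios and shares, 8 reversed, all of them 5p to 3p ratios near 0. With 0.5 added to each count that of miR-30a differed by 0.0190, and with single samples left out the differences ranged from -0.128 to 0.103 for miR-30a, -0.0786 to 0.0268 for miR-30d and -0.196 to 0.0645 for miR-30e. Depth limits miR-30c-5p, miR-30c-2-3p and miR-30a-3p.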

Other observations

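The 3 tested microRNAs whose log2 CPM followed the summed members most closely over the 6 samples, of 588 compared, were miR-142-5p (Pearson r = 0.996), miR-301b (0.995) and miR-135b-5p (0.995). This is a description of 6 points in 2 groups that share the TMM factors. miR-142-5p, a blood-cell microRNA, had 12593, 11089 and 11461 CPM in control and 38852, 43263 and 30967 CPM in RUNX1 samples. miR-301b, of the miR-130/301 family, had 1095, 937 and 961 CPM against 2663, 2859 and 2139 CPM. miR-135b-5p had 50.2, 45.4 and 46.0 CPM against 146, 156 and 113 CPM. In each of the 3, as in miR-30e-5p, RUNX1 replicate 2 was the highest and RUNX1 replicate 3 the lowest of the RUNX1 samples. This shared order is no separate result. The 3 were picked for following the summed members in these same samples, and miR-30e-5p is the largest part of that sum.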
